A study of Mus musculus with 6 samples.

Results

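The histone genes of the mouse were described by the accessible DNA found at them in leukemia-model bone marrow with heterozygous or wild-type Smc3, a gene of the cohesin ring. Members were the protein-coding genes named as histone genes under the older Hist1h to Hist4h symbols or the newer H1f, H2ac, H2bc, H3c and H4c symbols. There were 71 of them among 21887 protein-coding genes on chromosomes 1 to 19, X and Y, namely 10 H1, 18 H2A, 18 H2B, 12 H3 and 13 H4 genes. The rule used symbols alone. RefSeq's current symbols are used, and H4bc24 is an H2B gene despite its symbol (earlier Hist1h2br).

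Open chromatin was measured by ATAC-seq, in which a transposase cuts and tags DNA that nucleosomes leave exposed, in hematopoietic stem and progenitor cells (HSPC) from lineage-depleted mouse bone marrow. The Smc3 het group held 3 libraries with the genotype label inv(16);Smc3 D/+, and the Smc3 wt group held 3 libraries labelled inv(16);Smc3 +/+. Both groups therefore carried inv(16), which in human acute myeloid leukemia fuses a core-binding factor gene to a myosin gene, and both had viral transduction and tamoxifen induction of what the labels call Creon. The sources used here give no age, no promoter behind the recombinase and no word on pooling of animals, and the title frames the study around cohesin haploinsufficiency, inv(16) and Fli1 programs.

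The data were 1 list of ATAC peaks per genotype, 47233 peaks in Smc3 het, against 14830 peaks in Smc3 wt, with positions on mm10. With 1 list per genotype there is no replicate check, depth is unknown, and no difference below carries a p-value. The lists differ in length, so more peaks at a gene in Smc3 het and a longer list cannot be told apart. Intervals on shares are exact Clopper-Pearson 95% intervals that cover counting error only, and genes that share a peak are not independent. Over all protein-coding genes, 37.5% had a peak near a gene end in both lists, 14.2% had one in Smc3 het alone, 0.265% had one in Smc3 wt alone and 48.1% had none. Of 10 HSPC marker genes 5 had a peak near a gene end in both lists (Kit, Tal1, Runx1, Meis1 and Spi1), 4 in Smc3 het only (Cd34, Gata2, Myb and Flt3) and 1, Lmo2, in neither. Of 15 markers of mature blood lineages none had one in both lists, 3 had one in Smc3 het only (Camp, Cx3cr1 and Csf1r), 1 in Smc3 wt only (S100a8) and 11 in neither. Of 4 markers of cells outside the blood, Col1a1 had one in Smc3 het only and the other 3 had none.

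Histones H2A, H2B, H3 and H4 form the core around which DNA is wound, and H1 binds the DNA between cores. Most of their genes are replication-dependent: they lie in clusters, lack introns, are switched on together in S phase when new DNA needs new nucleosomes, and make mRNAs that end in a stem-loop instead of a poly(A) tail. NPAT, a coactivator phosphorylated by cyclin E and CDK2, drives them from nuclear bodies assembled at the clusters, and many H2A and H2B genes stand head to head over a common promoter. A few members are made in germ cells or outside S phase instead.

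The DNA just before the start site is shown for 11 members, chosen to hold a strong peak, a head-to-head pair, members with a peak in 1 list only beside a relative with peaks in both lists, and a member with no peak. Each line gives the 150 bases before the RefSeq start of the gene, 5′ to 3′ on the gene's strand, from RefSeq's GRCm38.p6 (the assembly of mm10). Capitals mark exact matches, on either strand, to the letters of 7 short motifs. CCAAT is the CCAAT box, bound by the factor NF-Y. TATAAA is the TATA box of core promoters. ATTTGCA is the core of the octamer, bound by POU factors at H2B genes. AAACACA is the H1 box of linker histone promoters. GGTCCG is the core of the site of HINFP, a zinc finger factor of H4 genes. CCGGAA is the core of ETS factor sites, and TGTGGT is that of RUNX sites.
H2ac18: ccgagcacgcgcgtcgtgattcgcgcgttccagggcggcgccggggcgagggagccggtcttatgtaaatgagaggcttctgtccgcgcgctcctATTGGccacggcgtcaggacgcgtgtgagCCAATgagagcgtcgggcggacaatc
H2ac6: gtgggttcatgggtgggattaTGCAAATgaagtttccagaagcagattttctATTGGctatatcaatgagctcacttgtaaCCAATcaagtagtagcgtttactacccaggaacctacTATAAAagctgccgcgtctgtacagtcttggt
H2ac12: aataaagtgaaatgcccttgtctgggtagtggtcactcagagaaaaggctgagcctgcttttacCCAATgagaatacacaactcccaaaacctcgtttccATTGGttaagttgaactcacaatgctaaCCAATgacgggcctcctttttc
H2bc12: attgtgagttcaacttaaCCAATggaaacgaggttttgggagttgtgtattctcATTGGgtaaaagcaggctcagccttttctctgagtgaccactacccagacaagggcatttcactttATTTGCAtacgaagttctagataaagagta
H3c6: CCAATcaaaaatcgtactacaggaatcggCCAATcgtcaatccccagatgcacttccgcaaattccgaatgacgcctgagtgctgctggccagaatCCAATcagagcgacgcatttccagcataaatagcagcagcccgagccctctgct
H3c4: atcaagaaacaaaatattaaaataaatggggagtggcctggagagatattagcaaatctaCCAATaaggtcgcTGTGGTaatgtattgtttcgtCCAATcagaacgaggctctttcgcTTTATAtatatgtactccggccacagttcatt
H4c3: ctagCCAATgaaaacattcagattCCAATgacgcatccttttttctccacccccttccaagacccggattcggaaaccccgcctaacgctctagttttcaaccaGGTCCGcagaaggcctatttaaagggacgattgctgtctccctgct
H4c12: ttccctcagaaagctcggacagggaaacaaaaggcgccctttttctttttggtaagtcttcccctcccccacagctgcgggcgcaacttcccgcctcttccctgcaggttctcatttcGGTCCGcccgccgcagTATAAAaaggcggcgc
H1f2: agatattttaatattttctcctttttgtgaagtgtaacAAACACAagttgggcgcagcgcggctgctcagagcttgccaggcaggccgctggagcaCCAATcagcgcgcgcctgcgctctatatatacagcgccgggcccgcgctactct
H1f1: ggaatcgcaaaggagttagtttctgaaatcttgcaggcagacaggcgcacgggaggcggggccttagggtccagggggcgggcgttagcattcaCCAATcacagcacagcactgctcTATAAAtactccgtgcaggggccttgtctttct
H1f6: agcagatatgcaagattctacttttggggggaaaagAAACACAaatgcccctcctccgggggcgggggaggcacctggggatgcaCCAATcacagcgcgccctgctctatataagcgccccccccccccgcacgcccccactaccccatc
H2ac18 lies at chr3:96245347-96245496 on the plus strand, with peaks in both lists and the most significant Smc3 het peak of any member. H2ac6 lies at chr13:23683960-23684109 on the minus strand. H2ac12 (chr13:22035644-22035793, minus) and H2bc12 (chr13:22035671-22035820, plus) are the facing sides of a head-to-head pair, so their sequences overlap as reverse complements. H3c6 (chr13:23562386-23562535, minus) had peaks in both lists and H3c4 (chr13:23575613-23575762, plus) in Smc3 het only. H4c3 (chr13:23698459-23698608, minus) had peaks in both lists and H4c12 (chr13:21750554-21750703, minus) in Smc3 het only. H1f2 (chr13:23738657-23738806, plus) had peaks in both lists, H1f1 (chr13:23763518-23763667, plus) in Smc3 het only and the testis gene H1f6 (chr13:23695661-23695810, plus) in neither. The H1f6 sequence holds an H1 box and a CCAAT box, as does that of H1f2.

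A gene-edge peak is a peak with its summit within 1000 bp of either end of the gene's span. It was found in both lists at 55 of the 71 histone genes (77.5%, interval 66.0 to 86.5), against 37.5% of all 21887 protein-coding genes. In Smc3 het only it was found at 7 members (9.86%, interval 4.06 to 19.3), against 14.2% of all genes. In Smc3 wt only it was found at 3 members (4.23%, interval 0.88 to 11.9), against 0.265% of all genes, and in neither list at 6 (8.45%, interval 3.16 to 17.5), against 48.1%. All but 10 members have a span of at most 1000 bp, and short genes of other kinds seldom had a peak. Of 1516 other protein-coding genes with a span of at most 1000 bp, 2.31% had such a peak in both lists, 2.24% had it in Smc3 het alone, 0.066% had it in Smc3 wt alone and 95.4% had none.

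**Figure D1:**
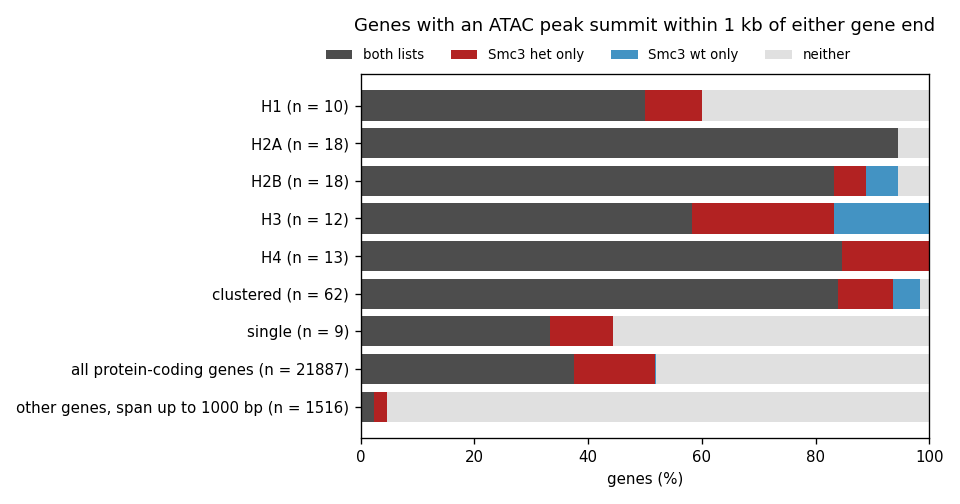
Percent of genes, on the x axis, by the list or lists that hold a gene-edge peak, for the 5 histone families, clustered and single histone genes, all protein-coding genes and other short genes; n is the number of genes. H2A genes sit at 94.4% in both lists, against 37.5% of all genes and 2.31% of other short genes.

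By family, H2A genes had a gene-edge peak in both lists at 17 of 18 (94.4%, interval 72.7 to 99.9), and the exception was H2ac1. H2B genes had one in both lists at 15 of 18, H4 genes at 11 of 13, H3 genes at 7 of 12 and H1 genes at 5 of 10. All 13 H4 genes had a peak in Smc3 het, against 11 of 13 in Smc3 wt, and all 12 H3 genes had one in at least 1 list. Because neighbours share peaks, the 62 members with one in Smc3 het (87.3%, against 51.6% of all genes) had 45 distinct strongest peaks, and the 58 in Smc3 wt (81.7%, against 37.7% of all genes) had 42.

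Of the 71 members 62 lay in 4 clusters, joined where spans were within 100 kb and at least 3 genes met, and 9 lay outside them. Clustered genes had a gene-edge peak in both lists at 52 of 62 (83.9%, interval 72.3 to 92.0), in Smc3 het only at 6, in Smc3 wt only at 3 and in neither at 1. The 9 other genes had one in both lists at 3 (33.3%, interval 7.49 to 70.1), in Smc3 het only at 1 and in neither at 5.

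The largest cluster, at chr13:23531044-23764412 (233.4 kb, H4c8 to H1f1), held 29 genes, with 30 peaks in Smc3 het, against 23 in Smc3 wt. Of the 30 Smc3 het peaks 25 lay at a histone gene end and 8 were absent from Smc3 wt, against 69.9% of all Smc3 het peaks. At any gene end 63.5% of the Smc3 het peaks were shared, so absence is rarer there than over the whole list. All 23 Smc3 wt peaks were shared, against 97.1% of all Smc3 wt peaks. It holds 1 protein-coding gene that is no histone gene, the iron regulator Hfe, with a gene-edge peak in both lists. The cluster at chr13:21715711-21837530 (121.8 kb, H2bc13 to H4bc24) held 18 genes, with 17 peaks in Smc3 het, against 10 in Smc3 wt. Here 14 of the 17 Smc3 het peaks lay at a histone gene end. Of the 17, 7 were absent from Smc3 wt, again against 69.9% of all Smc3 het peaks, with 63.5% shared at any gene end. Of these 7, 3 lay away from any histone gene end, whereas all 10 Smc3 wt peaks lay at one. The small cluster at chr13:22035122-22043658 (8.5 kb, 5 genes) held 3 peaks in each list, all at gene ends. The cluster at chr3:96219885-96270192 (50.3 kb, 10 genes) held 8 peaks in Smc3 het, against 9 in Smc3 wt, again all at gene ends. It was the only 1 of the 4 clusters with fewer peaks in Smc3 het, and there broad Smc3 het peaks lay over pairs of Smc3 wt peaks, as given below. With 1000 bp added at each end of a cluster, as for the peak counts, peak density was 12.7 to 28.5 per 100 kb in Smc3 het and 8.08 to 28.5 per 100 kb in Smc3 wt.

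**Figure D2:**
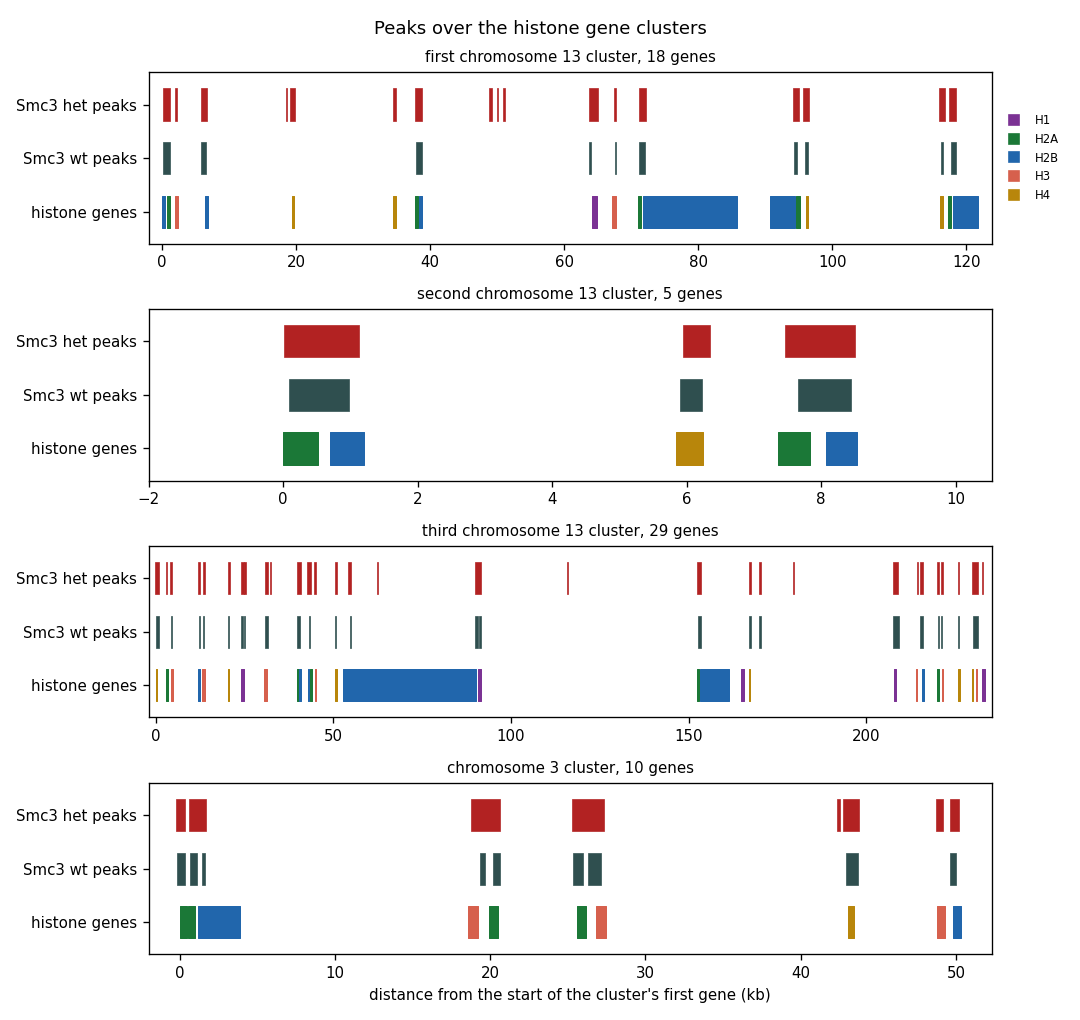
Peaks of the Smc3 het list (top row), peaks of the Smc3 wt list (middle row) and spans of the histone genes, coloured by family (bottom row), over the 4 clusters; the x axis is distance from the start of the first gene in kb. Most peaks sit on a histone gene end, and the 3 neighbouring Smc3 het peaks between H2bc15 and H1f5 (purple) in the first cluster have no partner in Smc3 wt.

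By family median, H2A and H2B genes carried the most significant peaks. Significance is given as the authors' −log10 q of a peak within its own list and is not compared between lists. Over the distinct strongest gene-edge peaks, the median −log10 q in Smc3 het was 39.74 for H2A, 38.44 for H2B, 28.21 for H3, 16.1 for H1 and 15.39 for H4. In Smc3 wt the medians were 18.0 for H2A, 17.69 for H2B, 13.08 for H3, 10.23 for H4 and 8.34 for H1. H2A and H2B thus came first and second in each list, and H1 and H4 came last. Head-to-head H2A and H2B genes share a peak, so their medians rest in part on the same peaks. A strongest gene-edge peak can also stand at a neighbouring gene. In Smc3 het this held, among others, for H3c7 (38.9, at H2bc9), H3c13 (34.4, at H2bc18), H3c2 (25.9, at H2ac4) and H2ac10 (30.5, at H3c8). The peaks in their own spans stood at 29.4, 19.3, 16.9 and 11.9. Medians without neighbours' peaks were not computed. Of all 55 Smc3 het gene-edge peaks at histone genes, 52.7% were in the most significant 20% of that list, against 50.5% of the Smc3 het peaks at any gene end. Of the 47 in Smc3 wt, 10.6% were in the most significant 20% of that list, against 30.6% at any gene end. That 20% is cut from 47233 peaks in Smc3 het and from 14830 peaks in Smc3 wt. These shares, and their distances from the share at any gene end, are therefore not comparable between lists.

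Among H2A genes, H2ac18 (earlier Hist2h2aa1) had a 2021 bp Smc3 het peak with a −log10 q of 84.4 and a 634 bp Smc3 wt peak with a −log10 q of 44.5. Its near-copy H2ac19 had a 1931 bp Smc3 het peak at 64.3 and a 477 bp Smc3 wt peak at 27.8. The H2ac18 peak ranked 847 in the Smc3 het list (top 1.79%) and 834 in the Smc3 wt list (top 5.62%). The ranks are close, and the percents differ with the lengths of the lists. Among H2B genes, H2bc4 shares its peak with H2ac6 (1141 bp and −log10 q 50.4 in Smc3 het, 949 bp and 37.6 in Smc3 wt), and H2bc12 shares its peak with H2ac12 (1122 bp and 48.9 in Smc3 het, 883 bp and 17.8 in Smc3 wt). Both are head-to-head pairs.

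Among H3 genes, the strongest Smc3 het gene-edge peak of H3c7 was 587 bp at −log10 q 38.9 and stood at the start of H2bc9. The peak over H3c7 itself was 654 bp at 29.4 in Smc3 het. In Smc3 wt the peak over H3c7 was its strongest, 326 bp at 21.1. H3c6 had peaks of 796 bp at 36.6 in Smc3 het and 763 bp at 25.6 in Smc3 wt. Among H4 genes, H4c1 shared a wide peak with H3c1, 1641 bp at 35.9 in Smc3 het and 1465 bp at 17.6 in Smc3 wt, and H4c3 had 662 bp at 28.4 in Smc3 het and 470 bp at 20.9 in Smc3 wt. Among the linker histone genes, H1f2 had peaks of nearly the same width in the lists, 1470 bp at 32.2 in Smc3 het and 1459 bp at 17.8 in Smc3 wt. H1f4 had a 1707 bp Smc3 het peak at 28.3, and its strongest Smc3 wt peak was 472 bp at 15.5.

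**Figure D3:**
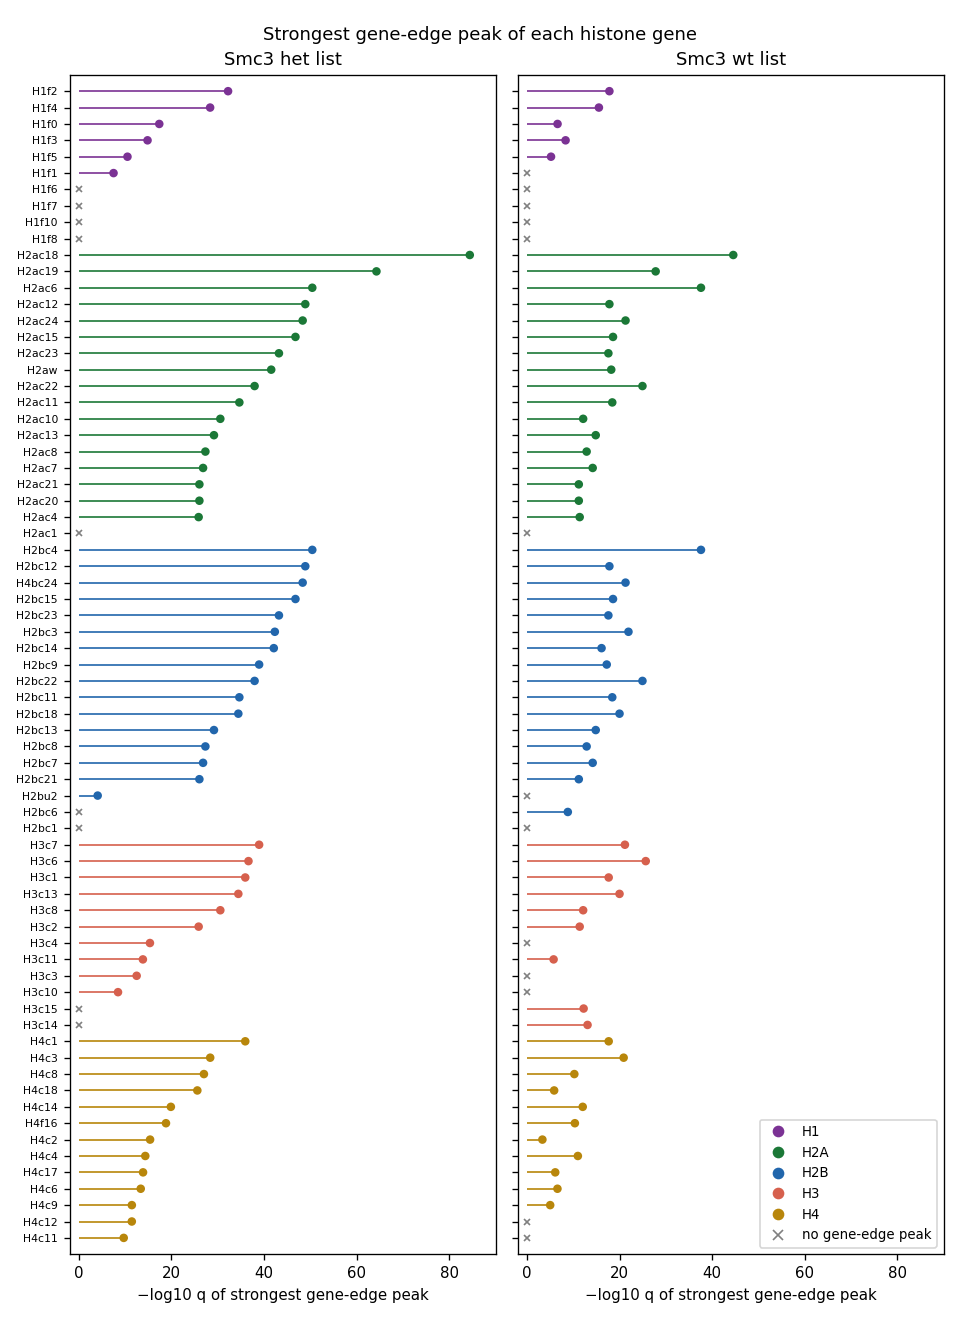
The −log10 q of the strongest gene-edge peak of each of the 71 histone genes, on the x axis, in the Smc3 het list (left) and the Smc3 wt list (right), coloured by family and sorted by the Smc3 het value; a cross at 0 marks a gene with no gene-edge peak. Values are comparable within a panel only. H2ac18 is highest in each panel, at 84.4 in Smc3 het and 44.5 in Smc3 wt. In the Smc3 wt panel H3c6 (25.6), H3c7 (21.1) and H4c3 (20.9) lie above most H2A and H2B genes.

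The 7 members with a gene-edge peak in Smc3 het only were H1f1, H2bu2, H3c3, H3c4, H3c10, H4c11 and H4c12. H3c4 had the most significant of these peaks, 354 bp at a −log10 q of 15.4, in the top 25.1% of the Smc3 het list. H3c3 had a 403 bp peak at 12.5, H4c12 a 376 bp peak at 11.4, H3c10 a 321 bp peak at 8.46 and H1f1 a 339 bp peak at 7.49. H4c11 had 2, of 236 bp at 9.69 and of 806 bp at 9.55, and H2bu2 had 1 of 241 bp at 4.07, in the top 68.9% of the list. Apart from the 806 bp peak these peaks were narrow, 236 to 403 bp, against a median of 796 bp over the 55 Smc3 het gene-edge peaks at histone genes. H4c11, H4c12 and H3c10 lie in the 18-gene cluster, while H3c3, H3c4 and H1f1 lie in the largest cluster. With the Smc3 het list cut to the 14830 most significant peaks, the length of the Smc3 wt list, H3c3 and H3c4 kept the class and the other 5 had no gene-edge peak in either list. With a 2000 bp window H3c3, H3c4 and H3c10 were in both lists, and by any overlap of a peak with the window H3c3 and H3c10 were. At equal list length 53 members were in both lists, against 34.7% of all genes, 2 in Smc3 het alone, against 3.05%, 5 in Smc3 wt alone (H1f5 and H4c9 besides the 3 below), against 3%, and 11 in neither, against 59.2%.

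The 3 members with a gene-edge peak in Smc3 wt only were H2bc6, H3c14 and H3c15, and at each of them a Smc3 het peak lay over the Smc3 wt peak. At H3c14 the 850 bp Smc3 wt peak (−log10 q 13.1) lay within the 2021 bp Smc3 het peak that also covers H2ac18. At H3c15 the 358 bp Smc3 wt peak (12.2) lay within the 1931 bp Smc3 het peak over H2ac19, and at H2bc6 the 821 bp Smc3 wt peak (8.82) lay within the 1707 bp Smc3 het peak over H1f4. In each case the summit of the wide Smc3 het peak was over 1000 bp from the ends of that gene. H2bc6 spans 37455 bp and has a second RefSeq promoter entry, overlapped in both lists by a peak inside the span, 1041 bp at 26.6 in Smc3 het and 424 bp at 16.7 in Smc3 wt. Counted by any overlap of a peak with the window instead, 60 members were in both lists, 5 were in Smc3 het alone and 0 were in Smc3 wt alone.

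Of the 43 Smc3 het gene-edge peaks of histone genes that overlapped the Smc3 wt list, 5 (11.6%) overlapped 2 or more separate Smc3 wt peaks. Over all gene ends this held for 75 of 7272 such peaks (1.03%), and over the whole list for 226 of 14269 (1.58%). The 5 stood at H1f3, at H1f4, at the trio H2ac20, H2ac21 and H2bc21, at H2ac19 and at H2ac18. They were 843 to 2021 bp wide in Smc3 het, and each overlapped 2 Smc3 wt peaks of 208 to 850 bp. At H1f3 the second of these, 371 bp at 2.72, was overlapped only at its edge. Another Smc3 het peak, 373 bp at 6.13, also overlapped it.

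The 6 members with no gene-edge peak in either list were H1f6, H1f7, H1f8, H1f10, H2ac1 and H2bc1. Of these, H1f6 (testis H1), H1f7 (spermatid H1), H1f8 (oocyte H1) and the testis pair H2ac1 and H2bc1 are known from germ cells. H1f6 stands between H2bc4 and H4c3 in the largest cluster, both of which had peaks in both lists. H1f10, a replication-independent linker histone gene, had 1 Smc3 het peak of 187 bp at a −log10 q of 5.23, 1307 bp from its span and absent from Smc3 wt.

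Of the 9 members outside the clusters, 3 had a gene-edge peak in both lists. H2aw, on chromosome 11, had 1194 bp at 41.5 in Smc3 het and 1247 bp at 18.2 in Smc3 wt, a width no greater in Smc3 het. H4f16, on chromosome 6, had 953 bp at 18.8 in Smc3 het and 709 bp at 10.3 in Smc3 wt. H1f0, the linker histone gene of differentiated and resting cells, had its strongest gene-edge peak past its far end, 392 bp at 17.4 in Smc3 het and 467 bp at 6.60 in Smc3 wt. In both lists that far-end peak had its summit in or nearer to the span of another protein-coding gene. Near the start of H1f0 lay a peak of 656 bp at 11.4 in Smc3 het and 368 bp at 3.76 in Smc3 wt. Only the Smc3 het peak covered the start itself. H2bu2, the neighbour of H2aw, was in Smc3 het only, and H1f7, H1f8, H1f10, H2ac1 and H2bc1 were in neither.

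The start site itself lay in a peak in both lists at fewer members. RefSeq start sites were at hand for 66 of the 71 members (not for H2bc4, H2bc21, H3c1, H3c7 and H4c14). The start lay inside a peak in both lists for 45, against 35.3% of 17492 genes with a RefSeq start. It lay in a peak of Smc3 het alone for 14 of the 66, a larger share than the 10.7% of all genes. The gene-edge measure went the other way for Smc3 het alone, with 9.86% of members, against 14.2% of all genes. The start lay in a peak of Smc3 wt alone for 0, against 0.246%, and of neither list for 7, against 53.7%. H2B genes had 14 starts in both lists, 0 in Smc3 het only and 2 in neither, and H2A genes had 15, 2 and 1. H3 genes had 5 in both and 5 in Smc3 het only, and H4 genes 8 and 4, with 0 in neither in each family. H1 genes had 3, 3 and 4.

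The summit of the strongest gene-edge peak lay within 150 bp of the start at 36 of 57 genes in Smc3 het, against 38 of 53 in Smc3 wt. The median distance from start to the summit of the strongest gene-edge peak, positive along the gene, was for H2B genes −142.5 bp in Smc3 het, against −108.5 bp in Smc3 wt. The H2B summit was upstream of the start at 12 of 14 genes in Smc3 het, against 14 of 14 in Smc3 wt. For H2A genes the median was −8 bp in Smc3 het, against −32 bp in Smc3 wt. For H4 genes it was 21 bp in Smc3 het, against 42 bp in Smc3 wt, and for H1 genes 40 bp in Smc3 het, against 116 bp in Smc3 wt. For H3 genes it was 39.5 bp over 8 genes in Smc3 het, against −71 bp over 7 genes in Smc3 wt, and these are partly different genes. Over the 5 H3 genes with a value in both lists the medians were −50 bp in Smc3 het, against −27 bp in Smc3 wt.

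**Figure D4:**
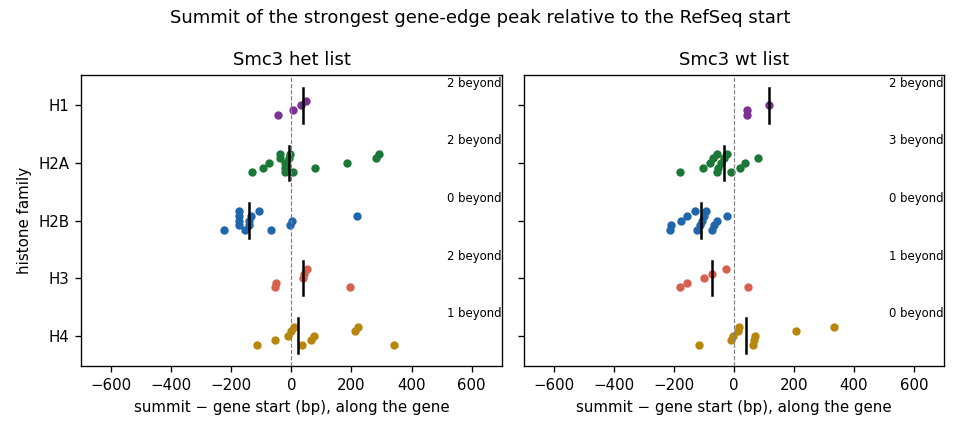
Distance in bp from the RefSeq start to the summit of the strongest gene-edge peak, on the x axis (positive along the gene), by histone family, in the Smc3 het list (left) and the Smc3 wt list (right). Points are genes, black bars are medians over all of a family's genes, and the small text counts genes more than 700 bp away, which are not drawn. H2B summits lie upstream, with medians of −142.5 bp in Smc3 het, against −108.5 bp in Smc3 wt.

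There were 12 pairs of an H2A and an H2B gene that stand head to head, 163 to 280 bp apart (median 209.5 bp), of which 10 have the strands of both genes in RefSeq. A peak lay over at least part of the gap in 11 of 12 in Smc3 het, against 11 of 12 in Smc3 wt. The pair without one in either list was the testis pair H2bc1 and H2ac1. In Smc3 het the strongest of these peaks were 977 to 1141 bp wide (median 1071) with a median −log10 q of 37.95, and in Smc3 wt they were 452 to 949 bp wide (median 799) with a median of 17.8. They covered both starts in 11 pairs in Smc3 het, against 10 in Smc3 wt, and their summit lay between the starts in 9 pairs in Smc3 het, against 10 in Smc3 wt. In each list the pair with the most significant peak was H2ac6 and H2bc4, with 50.4 in Smc3 het and 37.6 in Smc3 wt. The least significant was that of H2ac20 and H2bc21, with 26.03 in Smc3 het and 11.2 in Smc3 wt.

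Among paired peaks, as defined next, the Smc3 het peak was mostly the wider, at histone gene ends as elsewhere. Over the whole lists the median width was 318 bp in Smc3 het, against 418 bp in Smc3 wt. Among the pairs of 1 Smc3 het peak and 1 Smc3 wt peak that overlapped each other and nothing else, 37 lay at histone gene ends. The Smc3 het peak was the wider in 34 of 37 (91.9%), against 92.9% of 7112 such pairs at any gene end and 90.1% of all 13804. The median width was 953 bp in Smc3 het, against 526 bp in Smc3 wt at histone genes, and 720 bp in Smc3 het, against 501.5 bp in Smc3 wt at all gene ends. Within pairs, the median difference (Smc3 het minus Smc3 wt) was 196 bp at histone genes, near the 182 bp at all gene ends. The share wider in Smc3 het is therefore near the background. Peaks over 800 bp made up 27 of the 55 Smc3 het gene-edge peaks at histone genes (49.1%, against 25.3% at any gene end), and 11 of the 47 in Smc3 wt (23.4%, against 13% at any gene end). The 3 exceptions were the peak of H2aw, the far-end peak of H1f0 and a peak at H2ac20 and H2ac21 that was 527 bp wide in Smc3 het, against 530 bp in Smc3 wt.

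**Figure D5:**
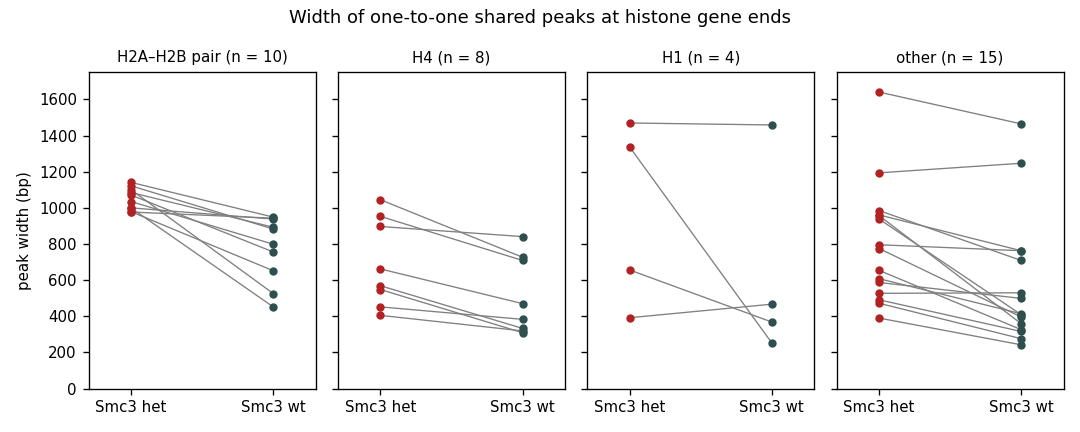
Width in bp (y axis) of the 37 pairs of overlapping peaks at histone gene ends in Smc3 het (left points) and Smc3 wt (right points), with a line joining each pair; panels hold the head-to-head H2A and H2B pairs, H4 genes, H1 genes and all others. The line falls toward Smc3 wt in 34 of 37 pairs and in all 10 head-to-head pairs.

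Rank within the 13804 pairs was set side by side, as each list then has the same number of peaks. The pairs leave out Smc3 het peaks over several Smc3 wt peaks, among them those of H2ac18 and H2ac19. The median percentile by −log10 q, where 100 is the most significant, was 55.81 in Smc3 het, against 61.7 in Smc3 wt for the 37 histone pairs, with a median difference of −3.38 points (Smc3 het minus Smc3 wt). Over all pairs at gene ends the medians were 64.6 in Smc3 het, against 64.76 in Smc3 wt, with a median difference of −0.04 points. The percentile was higher in Smc3 het at 14 of 37 (37.8%), against 49.7% of pairs at gene ends. Ranked by the authors' fold over background, the median difference was −10.67 points at histone genes and −0.44 points at all gene ends. By −log10 q the 8 pairs at H4 genes alone stood at a median of 33.72 in Smc3 het, against 48.78 in Smc3 wt, with 2 of 8 higher in Smc3 het. These 8 leave out peaks also at the end of another family's gene. The 2 at H2A and H4 genes stood at 38.49 in Smc3 het, against 27.83 in Smc3 wt, with 1 higher in Smc3 het. The 1 at H3 and H4 genes stood at 66.21 in Smc3 het, against 68.99 in Smc3 wt. The 10 head-to-head pairs stood at 71.23 in Smc3 het, against 69.94 in Smc3 wt, with 4 of 10 higher in Smc3 het and a median difference of −4.59 points. The sign for these 10 pairs therefore differs between the medians and the median difference.

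Each peak was also assigned to the gene whose span held its summit or lay nearest. In all, 68 Smc3 het peaks and 49 Smc3 wt peaks were assigned to histone genes. Of the Smc3 het peaks 45 (66.2%, interval 53.7 to 77.2) overlapped a Smc3 wt peak, against 30.1% of all Smc3 het peaks. In the Smc3 wt list 48 (98.0%, interval 89.1 to 99.9) of the assigned peaks had a Smc3 het peak over them, against 97.1% of all Smc3 wt peaks. At gene ends alone, 43 of 55 Smc3 het peaks were shared, against 63.5% of the 11451 Smc3 het peaks at any gene end, and 47 of 47 Smc3 wt peaks, against 99.5% of 7338. Of the 68 assigned Smc3 het peaks the other 23 (33.8%) were absent from Smc3 wt, against 69.9% of all Smc3 het peaks. Of these 23, 12 lay at a histone gene end and 11 away from one. They belonged to 19 of the 71 genes, against 56.4% of all protein-coding genes with at least 1 such peak. Only 56 of the 71 genes had any assigned Smc3 het peak. Most members are short and lie close together, which leaves each less DNA to which it is nearest. The comparison was not adjusted for gene length or spacing.

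H2bc15 had the most of them, 3, which lay 10249, 11207 and 12202 bp from its span, with widths of 401, 142 and 287 bp and −log10 q of 9.46, 1.92 and 8.95. H2bc13 had 2, at 5566 and 4695 bp from its span, and H4c11 had the 2 given above. The farthest lay 24459 bp from H1f4, inside the gap before H2ac6, with 209 bp at 6.87. The single Smc3 wt peak absent from Smc3 het lay 8950 bp from H4bc24, with 217 bp at 1.38. H3c13 had a 446 bp Smc3 het peak at 19.3 that Smc3 wt lacked at its start, besides the 608 bp peak toward H2bc18 at 34.4 in Smc3 het and 414 bp at 19.98 in Smc3 wt.

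The letters searched in the promoters, 300 bases from 250 before to 50 after the start, were counted by family. CCAAT, on either strand, was in 54 of the 66 member promoters, against 42.3% of the promoters of 17492 genes. It was in all 18 H2A, all 16 H2B and all 10 H3 promoters, in 7 of 10 H1 and in 3 of 12 H4 promoters. GGTCCG was in 11 of 12 H4 promoters and 14 of 66 in all, against 12.0% of all genes. ATTTGCA was in 7 of 18 H2A and 7 of 16 H2B promoters and in no other member, against 4.32% of all genes. AAACACA was in 5 of 10 H1 promoters and 9 of 66 in all, against 7.17%, and TATAAA in 35 of 66, against 14.8%. CCGGAA, the core of ETS factor sites such as those of Fli1, was in 2 of 66 (H1f4 and H4c8), against 20.9%, and TGTGGT, the RUNX core, in 6 of 66, against 17.2%. Head-to-head promoters overlap, so their matches are counted at both genes, and a match of letters says nothing of a factor's presence.

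By class of the start site, CCAAT was in 40 of 45 promoters with the start in a peak in both lists, in 9 of 14 with it in Smc3 het only and in 5 of 7 with it in neither. GGTCCG was in 9 of 45, 4 of 14 and 1 of 7 in that order, and TATAAA in 24 of 45, 8 of 14 and 3 of 7. The classes differ in family make-up, which these counts do not separate.

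Some members are near-copies. A stretch of 50 bases of the promoter occurred unchanged in another promoter of the table for 12 of 66 members, and for 10 of them over most of the promoter. These were the pairs H2ac18 and H2ac19, H3c14 and H3c15, H4c17 and H4c18, and the genes H2bc23, H4bc24, H2ac23 and H2ac24, with H4c11 and H4c12 over 11.6% of the stretches. The sources used here do not say how the authors treated reads that match several places. The peak values of these 12 genes are therefore uncertain, among them the most significant member H2ac18, 2 of the 3 genes in Smc3 wt only and 2 of the 7 in Smc3 het only. Their part in the results was not tested. Only the 300 bases of each promoter entry were compared, for 66 members. Copies elsewhere under the peaks, or at members without a promoter entry, were not checked. The peak values of the other members are therefore not cleared of this doubt.

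Genes that act with the clustered histone genes were counted the same way, against 37.5% of all genes with a gene-edge peak in both lists. Of 18 genes of histone gene transcription and mRNA 3′ processing, 16 had a gene-edge peak in both lists and the other 2 had one in Smc3 het alone. The −log10 q values that follow hold within each list and are not compared between lists. Npat had 99.1 in Smc3 het and 51.5 in Smc3 wt. Casp8ap2, which encodes a partner of NPAT in the histone locus body, had 114 in Smc3 het and 58.6 in Smc3 wt. Hinfp had 77.8 in Smc3 het and 46.0 in Smc3 wt. The stem-loop binding protein gene Slbp had 46.6 in Smc3 het and 21.1 in Smc3 wt. The 2 in Smc3 het only were Ccne2, an E-type cyclin gene, with a 1333 bp peak at 41.6, and Coil, the gene of the Cajal body protein coilin, with a 305 bp peak at 8.89. Of 17 histone chaperone genes 16 had one in both lists and 1, Nasp, in neither. Of 9 genes of replication-independent variants 7 had one in both lists and 2, Macroh2a2 and H3f3b, in neither.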

How the data were processed

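The submitters' processing notes name Bowtie2, MACS2 and the build mm10, with no versions. The authors deposited 1 narrowPeak list per genotype, without a header, and the peak names in it give the genotype. The sources used here do not say how the 3 libraries were combined, filtered or shifted for Tn5, and depth is unknown. Each deposited row holds the authors' score, fold (a ratio of summit over background) and −log10 q of the peak caller. The least significant peak had a −log10 q of 1.3 (Smc3 het) or 1.33 (Smc3 wt).

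Gene spans came from a RefSeq table of GRCm38.p6 and start sites from the matching promoter table. Peaks were shared if they overlapped by at least 1 bp. A summit at equal distance from several spans, or inside several, counted for each gene. Computation used Python 3.11.15, numpy 2.4.6, pandas 2.3.3, scipy 1.17.1 and matplotlib 3.10.9. Overlap and assignment were tested on 150 simulated peaks, and 100% were right. Histone pseudogenes were left out. Members, lists and tests were chosen with earlier results of these data known. Values in full were given for the 2 most significant members of each family in Smc3 het, members with a peak in 1 list only, single genes and those with most Smc3 het peaks absent from Smc3 wt, and other values named were chosen after they were seen. The start-site measure and the copy check were added after the data were seen. The alternatives were other thresholds, list lengths, windows, overlaps, assignments, linkages and ranks.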

Additional observations from a re-analysis of the deposited data

How the results depend on the processing

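Of 71 values under 14 other settings, 50 stayed close to the reported value (counts and medians within 1.5 times, shares within their interval), and 21 moved. Members in Smc3 het only numbered 12 at a −log10 q of at least 10 and 2 at equal list length, against 7. Those in Smc3 wt only numbered 5 at equal list length and 0 with a 2000 bp window or by any overlap, against 3. Those in neither numbered 11 at a −log10 q of at least 10 and 11 at equal list length, against 6. Cutting the list removes peaks by construction. At equal list length 64 of 71 members kept their class, and at a −log10 q of at least 10, 57 did. Of assigned peaks, Smc3 het held 45 at equal list length, against 68. Smc3 het peaks absent from Smc3 wt numbered 5 at equal list length, 35 at an overlap of at least 50% of both peaks, 13 with genes of any class and 15 within 5 kb, against 23. Smc3 wt peaks absent from Smc3 het numbered 5 at equal list length, 17 at 50% overlap and 0 with a −log10 q of at least 5 or at least 10, with genes of any class or within 5 kb, against 1. Clustered genes with a peak in both lists made up 71.0% at a −log10 q of at least 10 and 95.2% with a 2000 bp window, against 83.9%. The median percentile difference was −10.67 points ranked by fold, against −3.38. Depth is unknown, so whether a peak missing from Smc3 wt fell under its detection limit was not tested. No paired analysis was possible because the lists hold no values per library, and no library could be left out.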
